A study of Mus musculus and Homo sapiens with 30 samples.

Results

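E0771 is an established mouse mammary cancer cell line. The comparison described here set 3 libraries of E0771 cells kept in medium conditioned by lean adipocytes, the lean secretome, against 3 libraries of the same cells kept in medium conditioned by obese adipocytes. These 6 libraries were chosen by their labels from the 30 of the series, and the comparison was made across all 13813 genes with enough counts of the 56980 gene identifiers in the mouse table. In both groups the cells grew for 36 h and were then treated for 16 h, with 50% inguinal adipocyte secretome and 50% standard growth medium, DMEM with 10% fetal bovine serum. A control group of 3 E0771 libraries received growth medium alone and is given as the background level. The labels did not state the species, number or feeding of the adipocyte donors, nor whether replicates were separate cultures, so p-values measure only the spread between these libraries of 1 cell line. The same secretomes were given to NMuMG, a mouse mammary gland epithelial line whose medium also held insulin and added glucose, and its 9 libraries (3 lean, 3 obese and 3 control) served for a test of which effects differed between the lines.

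The title of the series links an oxylipin, an oxidised fatty acid secreted by lean breast adipocytes, to ferroptosis. Ferroptosis is a form of cell death in which iron drives the oxidation of membrane phospholipids, and it is held back by cystine import, glutathione and the selenoenzyme Gpx4. Oxidised lipids and other electrophiles are sensed by Keap1, which otherwise sends the transcription factor NRF2 (Nfe2l2) for degradation. Freed NRF2 binds antioxidant response elements and raises genes for glutathione synthesis, thioredoxin, quinone reduction and heme breakdown. A separate stress route runs through the transcription factor ATF4, which raises amino acid synthesis and transport genes when translation is restrained, and heat shock factors raise chaperone genes when proteins misfold.

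The cells matched the label of a mammary epithelial cancer line only in part. Of 10 mammary epithelial markers, Krt8 was the 1 with enough counts to be tested, at 5817 to 7657 counts in each of the 9 libraries. Krt19, Cldn3 and Esrp1 had 0 counts in all 9 libraries, Krt18 had at most 1 count in any of them and Cdh1 at most 8, whereas NMuMG libraries of the same table held at least 56537 counts of Krt18 and 11285 of Cdh1. Cldn3 and Esrp1 were at most 3 counts in NMuMG as well. The stromal receptors Pdgfra and Pdgfrb had at least 2639 and 1926 counts in every E0771 library. Of the same list, Col1a1 had 5654 to 19404 counts, Col3a1 1177 to 3674, Dpp4 357 to 588 and Dpt 224 to 353. Pi16 had 16 to 94 counts, and Col1a2 (2 to 11), Dcn (at most 7) and Lum (at most 2) were nearly absent. The 7 basal and myoepithelial markers summed to between 29.1 and 36.1 CPM with the lean and 17.9 to 18.3 CPM with the obese secretome. Most of each sum was Acta2, which was at 27.7, 27.4 and 33.5 CPM in the lean and 17.3, 17.8 and 17.4 CPM in the obese libraries. Acta2 and Krt14 (2 to 52 counts) were called higher with the lean secretome, and Oxtr did not pass. Krt5, Trp63, Myh11 and Cnn1 had too few counts to be tested. Of 15 adipocyte markers 5 had 0 counts in all 9 libraries, Pparg among them, and 9 had at most 3 counts in each. Lipe, which encodes hormone-sensitive lipase, had 188 to 359 counts and rose with the lean secretome by 0.39 (adjusted p = 0.00376), and Fabp4 had 19 to 39 counts and did not pass. The 10 stromal markers summed to between 448 and 473 CPM (counts scaled to a common library size by edgeR) with the lean secretome, 769 to 1011 CPM with the obese secretome and 1007 to 1116 CPM in control medium. Total counts ran from 22929035 to 31094119, mitochondrial transcripts took 1.32% to 1.46% of a lean library and 1.19% to 1.41% of an obese library, and the first principal component (57.4% of the variance) separated the lean libraries from the other 6.

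The expression differences between lean and obese secretome were widespread, and most were small. edgeR's quasi-likelihood test with Benjamini-Hochberg adjustment called 7275 genes at an adjusted p under 0.05, 52.7% of those tested. Of the tested genes 25.8% were called higher and 26.9% lower with the lean secretome. The median of all 13813 log2 fold changes was 0.0035, and 2382 of the called genes differed by less than 0.26 on the log2 scale. Changes of at least 4-fold were seen in 67 genes that rose and 29 that fell. For 60.1% of genes the lean and obese values were fully separated, so an absence of overlap alone was common here. At an unadjusted p under 0.05 there were 7948 genes, and the typical (median) standard error was 0.072 on the log2 scale. Counts of list members are read against these shares, because calls were frequent among all tested genes.

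**Figure D1:**
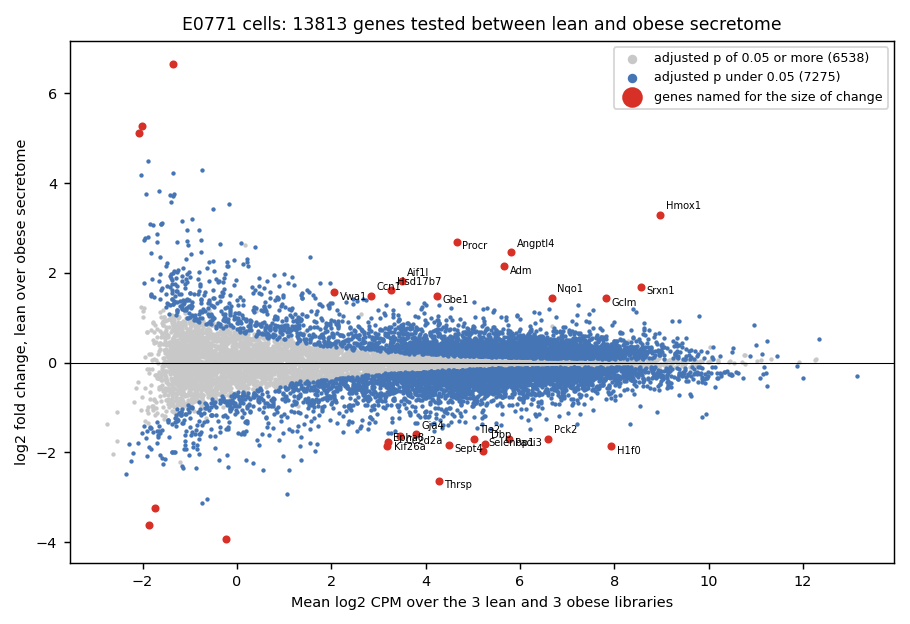
Log2 fold change of lean over obese secretome (vertical axis) against mean log2 CPM over the 6 libraries (horizontal axis), 1 point per tested gene of E0771 cells. Blue points are the 7275 called genes and grey points the others. Red points are the genes chosen by the size of their change, from Psg29 at 6.65 to Edn2 at -3.92. Only the well-counted ones carry labels, from Hmox1 at 3.30 to Thrsp at -2.64.

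Hmox1, which encodes heme oxygenase, had the largest increase among well-counted genes. It was at 1378, 1338 and 2232 CPM in the lean libraries and 253, 112 and 139 CPM in the obese libraries and rose by 3.30 (SE 0.375, adjusted p = 0.000355) on the log2 scale, in which all later rises and falls are given. The highest obese library still lay far under the lowest lean library, and it was obese replicate 1. Procr, the protein C receptor, was at 60.9, 54.9 and 83.6 CPM in the lean libraries and 15.3, 7.75 and 7.86 CPM in the obese libraries and rose by 2.698 (SE 0.301, adjusted p = 0.000315). Angptl4, an inhibitor of lipoprotein lipase, was at 132, 136 and 131 CPM in the lean libraries and 28.5, 17.3 and 26.8 CPM in the obese libraries and rose by 2.46 (SE 0.154, adjusted p = 6.93e-06). The 3 lean values of Angptl4 were close to each other, while those of Hmox1 and Procr were led by lean replicate 3.

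Adm encodes adrenomedullin, a peptide that widens blood vessels. It was at 96, 101 and 127 CPM in the lean libraries and 30.5, 19.9 and 22.7 CPM in the obese libraries and at 19.3 ± 1.78 CPM (mean ± SD, n = 3) with growth medium alone, and rose by 2.15 (SE 0.180, adjusted p = 5.8e-05). Aif1l, which encodes an actin-binding protein, was at 21.3, 20.9 and 21.7 CPM in the lean libraries and 7.95, 4.41 and 5.77 CPM in the obese libraries and rose by 1.82 (SE 0.137, adjusted p = 8.03e-09). In both genes every lean library lay above every obese library, which their choice required, and above every control library. Hsd17b7, an enzyme of cholesterol synthesis, rose by 1.62 (SE 0.108, adjusted p = 1.91e-11) from 5.83, 5.78 and 4.89 CPM in the obese to 16.1, 15.1 and 19.4 CPM in the lean libraries. Gbe1, the glycogen branching enzyme, rose by 1.49 (SE 0.149, adjusted p = 7.61e-06) and stood at 32.3, 31.5 and 32.03 CPM in the lean libraries and 15.4, 9.56 and 9.17 CPM in the obese libraries. Obese replicate 1 was again the obese library nearest to the lean ones for Gbe1, and the obese libraries of Hsd17b7 lay just under the control level of 6.17 ± 0.164 CPM. Vwa1, a matrix protein, and Ccn1, a matricellular protein, rose by 1.57 (SE 0.158, adjusted p = 1.15e-08) and 1.498 (SE 0.137, adjusted p = 3.81e-09). The 3 remaining members of the 12 largest increases, Srxn1, Nqo1 and Gclm, belong to the thiol and quinone defence and are given with it.

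Thrsp, a regulator of fatty acid synthesis, had the largest decrease among well-counted genes. It was at 8.25, 8.22 and 6.99 CPM in the lean libraries and 41.3, 54.3 and 49.98 CPM in the obese libraries and fell by 2.64 (SE 0.134, adjusted p = 1.87e-08). Selenbp1, a selenium-binding protein, was at 20.1, 21.5 and 15.01 CPM in the lean libraries and 68.9, 78.7 and 74.03 CPM in the obese libraries and fell by 1.97 (SE 0.117, adjusted p = 2.74e-07). H1f0, a linker histone typical of resting and differentiated cells, was at 140.4, 147 and 102 CPM in the lean libraries and 409, 516 and 490.4 CPM in the obese libraries and fell by 1.86 (SE 0.157, adjusted p = 7.16e-05). The obese libraries of Selenbp1 and H1f0 stood around the control level, 74.03 ± 5.71 and 506 ± 19.99 CPM (mean ± SD, n = 3), and the lean libraries at a fraction of it, with lean replicate 3 lowest. Pck2, the mitochondrial form of phosphoenolpyruvate carboxykinase, was at 55.2, 57.2 and 49.7 CPM in the lean libraries and 153, 184 and 186 CPM in the obese libraries and fell by 1.69 (SE 0.0783, adjusted p = 3.35e-09). Tle2, a transcriptional corepressor, was at 17.3, 19.1 and 17.9 CPM in the lean libraries and 52.7, 64.4 and 59.2 CPM in the obese libraries and fell by 1.70 (SE 0.0954, adjusted p = 3.39e-09). Its control level of 79.6 ± 9.72 CPM lay above the obese libraries too.

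The other decreases of that size were in genes of diverse function. They were the ephrin receptor Epha8 (-1.86, adjusted p = 1.15e-07), the septin Sept4 (-1.84, 1.12e-10), the clock-controlled transcription factor Dbp (-1.81, 9.41e-13) and the kinesin-family gene Kif26a (-1.77, 1.11e-11). Padi3, a peptidylarginine deiminase, changed by -1.70 (adjusted p = 4.69e-05), Cc2d2a, a protein of the ciliary transition zone, by -1.64 (1.26e-11) and Gja4, a connexin, by -1.59 (4.48e-11), all on the log2 scale. All 24 genes were chosen among those whose lean and obese libraries did not overlap.

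**Figure D2:**
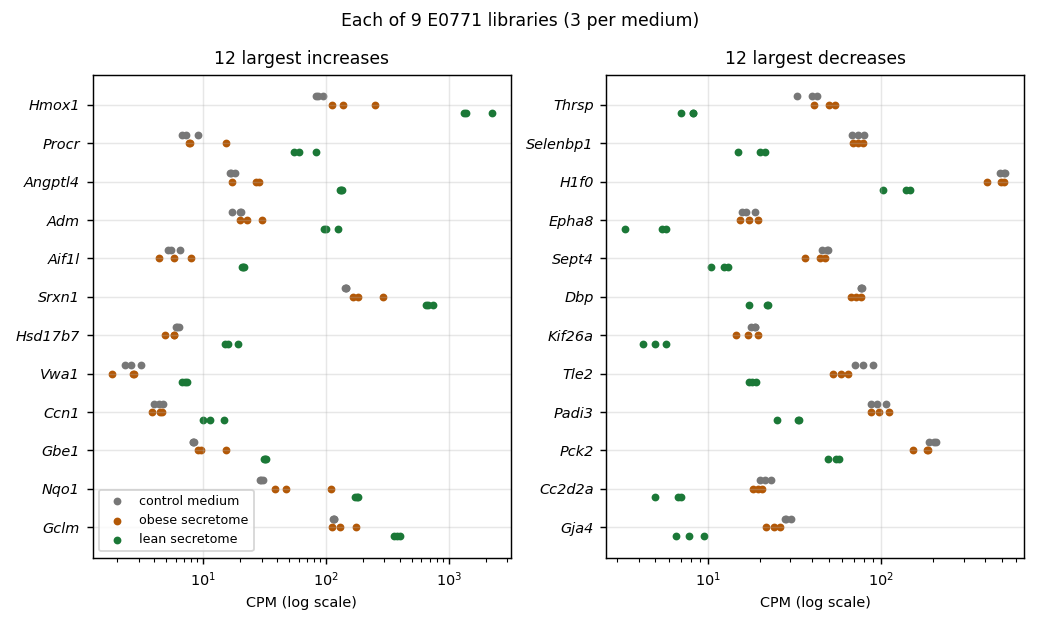
CPM on a log scale (horizontal axes) of the 12 largest increases and the 12 largest decreases in each of the 9 E0771 libraries, 3 per medium (grey control medium, orange obese secretome, green lean secretome). The green and orange points are apart in every row because the genes were chosen for that, and the orange points of Nqo1 spread most, from 38.3 to 110.0 CPM.

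Among genes near the limit of counting, changes were larger but less exactly known. Psg29, of the pregnancy-specific glycoprotein family whose members can share reads, had 59, 39 and 52 counts in the lean libraries, 1 in all 3 obese libraries together and 0 in the control libraries. The ratio of its summed counts, scaled by library size, was 136 with an exact 95% interval from 24.1 to 5423. Lexm had 18, 14 and 26 counts against 1, a ratio of 52.7 (9.10 to 2119). In the other direction Edn2, which encodes the vasoconstrictor endothelin 2, had 6, 6 and 4 counts in the lean libraries and 46, 87 and 94 in the obese libraries. That was a ratio of obese over lean of 15.6 (9.40 to 27.8). Klhl33 had 0, 1 and 3 lean counts against 49 in all (ratio 13.5, 4.94 to 51.4), and Rps6ka2, a ribosomal S6 kinase, had 0, 1 and 5 against 54 (ratio 9.90, 4.26 to 28.2). These intervals cover counting error only, and single libraries set the sizes. Without lean replicate 3 the fitted log2 fold change went from -3.62 to -4.78 for Klhl33 and from -3.24 to -4.93 for Rps6ka2. The single obese count of Psg29 and of Lexm was in obese replicate 1. Without that library the fitted values went from 6.65 to 8.55 and from 5.27 to 7.18, and with 0 obese counts left they depend on the prior count.

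Of 22 tested genes of the NRF2, thioredoxin and quinone defence, 15 rose with the lean secretome and 4 fell, with a median log2 fold change of 0.56, the highest median among the lists with at least 10 tested members. The regulators themselves moved little: Nfe2l2 did not pass (log2 fold change 0.11, SE 0.0599, adjusted p = 0.141), and Keap1 changed by -0.12 (SE 0.0471, adjusted p = 0.0318), a call lost in 6 of 16 alternatives (adjusted p up to 0.129). Srxn1, which repairs overoxidised peroxiredoxins, was at 673, 652 and 742 CPM in the lean libraries and 292, 165 and 183 CPM in the obese libraries, a rise of 1.69 (SE 0.213, adjusted p = 0.000597). Nqo1, a quinone reductase, was at 179, 182 and 172 CPM in the lean libraries and 110.0, 38.3 and 47.5 CPM in the obese libraries, a rise of 1.45 (SE 0.370, adjusted p = 0.0161). Both sets of lean libraries lay above all obese libraries, as the choice of these genes required. Obese replicate 1 stood well above the other obese libraries, which lay closer to the control levels of 145 ± 1.86 and 29.9 ± 0.653 CPM (mean ± SD, n = 3). Without obese replicate 1 the log2 fold change of Nqo1 was 2.05, and its call was lost without obese replicate 3 (adjusted p = 0.0575) and in a fit of only the 6 lean and obese libraries (0.0551). Other risers were the peroxiredoxin Prdx6 (1.19, adjusted p = 7.9e-09), the autophagy receptor Sqstm1, which also binds Keap1 (1.05, 0.000381), and the small MAF protein Maff, a partner of NRF2 (1.30, 7.54e-08). Sesn2, counted in this list, in the ATF4 list and among p53 targets, fell by 0.96 (SE 0.0698, adjusted p = 6.19e-11).

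Obese replicate 1 was the obese library nearest to the lean group in 16 of the 19 called genes of this list, compared with 51.7% of all called genes. Leaving that library out gave 16 genes higher and 3 lower. Its part in the size of single changes was not tested beyond these values. The whole list lay at 0.17, -0.12 and -0.05 in the obese libraries and at 0.55, 0.43 and 0.54 in the lean libraries, as the median log2 difference from each gene's obese mean.

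In cystine import and glutathione synthesis 7 of 14 rose and 3 fell, with a median log2 fold change of 0.33. Glutamate cysteine ligase takes the first step of glutathione synthesis. Its modifier subunit Gclm was at 376, 356 and 402 CPM in the lean libraries and 177, 112 and 132 CPM in the obese libraries, a rise of 1.43 (SE 0.161, adjusted p = 0.000322), and its catalytic subunit Gclc was at 338, 336 and 385 CPM in the lean libraries and 269.5, 189 and 209 CPM in the obese libraries, a rise of 0.67 (SE 0.137, adjusted p = 0.00591). All lean libraries lay above all obese libraries for both subunits, which the choice of Gclm required. The rise of the modifier was the larger. The cystine transporter had its 2 subunits apart: Slc7a11 rose by 0.86 (SE 0.122, adjusted p = 5.59e-06), with an adjusted p of 0.0564 in the fit of 18 mouse libraries, while its partner Slc3a2, shared with other transporters, did not pass (-0.05, SE 0.0423, adjusted p = 0.307). Ggct, an enzyme of the gamma-glutamyl cycle, rose by 1.03 (SE 0.0976, adjusted p = 4.46e-09) and the glutathione conjugate exporter Abcc1 by 0.85 (SE 0.0921, adjusted p = 7.22e-05). Chac1, which degrades glutathione, was at 2.86, 3.77 and 3.54 CPM in the lean libraries and 8.46, 7.44 and 9.39 CPM in the obese libraries and fell by 1.31 (SE 0.143, adjusted p = 3.93e-08). Gpx1, the cytosolic glutathione peroxidase, fell by 0.41 (SE 0.0584, adjusted p = 2.51e-06).

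The antioxidant response element core, TGACNNNGC on either strand, was looked for in the 250 bases upstream of the start of each gene with a RefSeq promoter (GRCm38.p6), which existed for 9464 of the 13806 symbols tested. Its first letters are shared with AP-1 sites. It stood in 14.5% of the promoters of genes called higher, 13.5% of those called lower and 14.0% of all tested, compared with 10.2% of all 32841 windows of the table, and in 18.9% of 233 genes that rose by at least 1 and 11.1% of 198 that fell by at least 1. In the NRF2 list it stood in 7 of 20 genes and in the glutathione list in 3 of 10. Of the 7, Txnrd1, Prdx1 and Maff rose, Ugdh and Sesn2 fell, and Nfe2l2 and Mafg were not called. Of the 3, Gclm and Ggct rose and Ggt1 was not called. The same element thus stood upstream of genes that moved in both directions. The stretches of Gclm and Nfe2l2 are shown, a strongly rising gene and the regulator that did not pass. The element is in capitals, 5′ to 3′ on the gene's strand.
Gclm (chr3:122245383-122245471, plus strand): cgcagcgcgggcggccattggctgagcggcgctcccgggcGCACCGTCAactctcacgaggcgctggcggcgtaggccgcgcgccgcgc
Nfe2l2 (chr2:75704855-75704913, minus strand): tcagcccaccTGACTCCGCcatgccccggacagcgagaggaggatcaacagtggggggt
The element began 134 bases before the start of Gclm and 240 bases before that of Nfe2l2.

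The enzymes that use or feed glutathione were divided. Among glutathione transferases 6 of 16 rose and 3 fell, with a median log2 fold change of 0.13: Gstp1 rose by 0.58 (SE 0.0970, adjusted p = 0.00122) and Gstm7 by 0.81 (SE 0.202, adjusted p = 0.00152), while Gstt1, at 13.2, 13.01 and 10.5 CPM in the lean libraries and 28.6, 28.02 and 28.9 CPM in the obese libraries, fell by 1.22 (SE 0.0838, adjusted p = 2.8e-11) and Gstz1 by 0.63 (SE 0.0640, adjusted p = 1.37e-08). Transferase paralogs are alike in sequence, so part of their reads may be shared. In the list named for lipid aldehyde clearance, which also holds aldehyde dehydrogenases of other pathways, 8 of 18 rose and 8 fell, with a median log2 fold change of -0.09. Adh7 rose by 1.33 (SE 0.119, adjusted p = 5.59e-08) and Akr1b8 by 0.51 (SE 0.0620, adjusted p = 2.19e-07). Of the members with other work, the mitochondrial folate enzyme Aldh1l2 fell by 1.24 (SE 0.0854, adjusted p = 3.39e-07) and Aldh18a1, of proline synthesis, by 0.89 (SE 0.0443, adjusted p = 2.19e-13). For NADPH, the reductant of both thiol systems, 7 of 16 rose and 5 fell, with a median log2 fold change of 0.05. Malic enzyme Me1 was at 173, 176 and 181 CPM in the lean libraries and 122, 95.9 and 109 CPM in the obese libraries and rose by 0.70 (SE 0.0608, adjusted p = 3.22e-08), and Pgd and G6pdx of the pentose phosphate path rose by 0.66 (SE 0.0837, adjusted p = 0.000134) and 0.37 (SE 0.0773, adjusted p = 0.00283). Pgls, which stands between those 2 enzymes in the path, was at 35.98, 36.8 and 33.1 CPM in the lean libraries and 66.3, 69.5 and 70.7 CPM in the obese libraries and fell by 0.96 (SE 0.0562, adjusted p = 2.02e-12), and Idh1 fell by 0.85 (SE 0.0894, adjusted p = 6.7e-07).

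Iron and heme genes rose more often than they fell: 13 of 28 rose and 5 fell, with a median log2 fold change of 0.11. Alas1, the first enzyme of heme synthesis, was at 147, 144 and 159 CPM in the lean libraries and 72.4, 58 and 65.5 CPM in the obese libraries, a rise of 1.201 (SE 0.0695, adjusted p = 5.84e-10). The heme exporter Flvcr1 rose by 0.96 (SE 0.0866, adjusted p = 1.88e-06), and Blvrb, a biliverdin reductase, by 0.71 (SE 0.183, adjusted p = 0.0166). All lean libraries of the 3 genes lay above all obese libraries. The ferritin light chain Ftl1 rose by 0.48 (SE 0.0766, adjusted p = 0.000701) and the heavy chain Fth1 by 0.53 (SE 0.0845, adjusted p = 0.00125), and the transferrin receptor Tfrc by 0.62 (SE 0.0579, adjusted p = 3.16e-07). The call of Blvrb was lost when lean replicate 3, obese replicate 2 or obese replicate 3 was left out (adjusted p = 0.0517, 0.0505 and 0.0583).

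The 12 genes taken as the core of ferroptosis were all called in the fit used here, 7 higher and 5 lower, and without obese replicate 1 the counts were 6 and 4. Lpcat3, which places polyunsaturated fatty acids into phospholipids, was at 66.8, 68.4 and 64.03 CPM in the lean libraries and 73.1, 77.6 and 67.9 CPM in the obese libraries, a fall of 0.13 (SE 0.0559, adjusted p = 0.0461) that was lost in 10 of 16 alternatives, DESeq2 (0.0722) and the replicate block (0.0551) among them. The calls of Slc7a11 and Ptgs2 were lost in 1 and 3 alternatives, given with each gene. Fth1, which stores iron, was at 6196, 6195 and 6301 CPM in the lean libraries and 4980.3, 3918 and 4091 CPM in the obese libraries, with obese replicate 1 the highest of the obese libraries. Gpx4, which reduces phospholipid peroxides, was at 141, 144 and 137 CPM in the lean libraries and 175, 178 and 178 CPM in the obese libraries and fell by 0.33 (SE 0.0444, adjusted p = 8.88e-07). Among 22 genes of phospholipid radical defence and peroxidation 10 rose and 6 fell, with a median of 0.10. Gch1, which starts tetrahydrobiopterin synthesis, rose by 1.197 (SE 0.257, adjusted p = 0.000363), while Pts, which acts after Gch1, fell by 0.86 (SE 0.129, adjusted p = 2.18e-05). Aifm2, which reduces coenzyme Q, rose by 0.34 (SE 0.0610, adjusted p = 4.14e-05), whereas Coq2 and Coq9 of coenzyme Q synthesis fell by 0.75 (SE 0.0641, adjusted p = 1.26e-09) and 0.76 (SE 0.0570, adjusted p = 1.15e-10). Dhodh did not pass (0.01, SE 0.0610, adjusted p = 0.946). Of 26 genes of selenoproteins and selenium handling 5 rose and 14 fell (median -0.18). Selenoo, at 12.7, 15.1 and 10.9 CPM in the lean libraries and 34.02, 34.6 and 32.3 CPM in the obese libraries, fell by 1.39 (SE 0.0900, adjusted p = 7.71e-11) and Selenop by 0.79 (SE 0.103, adjusted p = 1.61e-06), while Txnrd3, a thioredoxin reductase, rose by 0.74 (SE 0.0745, adjusted p = 1.25e-08).

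The ATF4 and CHOP stress genes fell more often than they rose. Of 27 tested, 5 rose and 19 fell, with a median of -0.46, the lowest among the lists. Atf4 was at 266, 259.8 and 278 CPM in the lean libraries and 429.9, 442 and 434 CPM in the obese libraries, a fall of 0.70 (SE 0.0365, adjusted p = 4.63e-13), and Ddit3, which encodes CHOP, did not pass (-0.03, SE 0.122, adjusted p = 0.879). Herpud1, of the degradation of misfolded proteins at the endoplasmic reticulum, was at 53.3, 57.96 and 48.6 CPM in the lean libraries and 116, 124 and 125 CPM in the obese libraries and fell by 1.19 (SE 0.0535, adjusted p = 8.36e-14). Lean and obese libraries of Atf4 and Herpud1 lay far apart, with little spread inside each group. Asns, the asparagine synthetase, fell by 0.35 (SE 0.0394, adjusted p = 8.58e-08), and the leucine transporter Slc7a5 by 0.37 (SE 0.0394, adjusted p = 2.97e-08). Among the 5 members that rose were Atf3, a stress-induced transcription factor (1.40, SE 0.121, adjusted p = 9.55e-10), and Slc7a11 and Sqstm1, given above. Ddit4, an mTORC1 inhibitor, fell by 0.59 (SE 0.0532, adjusted p = 2.54e-09).

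The ATF4-C/EBP composite element, TGATGNAA on either strand, stood in 8 of 24 genes of this list. It stood in 2.46% of genes called lower, 2.07% of those called higher and 2.34% of all tested. Of all single windows, an unlike measure, it stood in 3.45%. It is shown in the promoters (RefSeq, GRCm38.p6) of Pck2 and Chac1, which fell, and of Slc7a11, which rose and holds 2 copies. Capitals mark the element.
Pck2 (chr14:55540123-55540210, plus strand): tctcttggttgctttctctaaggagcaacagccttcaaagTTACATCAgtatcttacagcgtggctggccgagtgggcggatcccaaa
Chac1 (chr2:119351009-119351096, plus strand): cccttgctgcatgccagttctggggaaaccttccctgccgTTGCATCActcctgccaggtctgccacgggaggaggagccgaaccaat
Slc7a11 (chr3:50443614-50443719, minus strand): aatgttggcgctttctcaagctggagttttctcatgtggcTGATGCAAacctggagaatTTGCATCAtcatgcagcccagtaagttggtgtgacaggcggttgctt
The same element stood upstream of genes that moved in both directions.

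In serine, one-carbon, asparagine and proline synthesis 7 of 24 rose and 14 fell, with a median log2 fold change of -0.20. Psat1, of serine synthesis, was at 474, 483 and 472 CPM in the lean libraries and 657, 693 and 663 CPM in the obese libraries and fell by 0.49 (SE 0.0348, adjusted p = 4.07e-11), Phgdh fell by 0.22 (SE 0.0381, adjusted p = 2.33e-05), Mthfd2 of the mitochondrial folate path by 0.55 (SE 0.0412, adjusted p = 1.1e-10) and the transaminase Gpt2 by 0.90 (SE 0.0488, adjusted p = 7.08e-13). Of 20 cytosolic aminoacyl-tRNA synthetases 4 rose and 12 fell (median -0.16), with Cars at -0.76 (adjusted p = 5.54e-13) and Mars at -0.56 (1.31e-10) lowest. Amino acid transporters were split, 7 higher and 5 lower of 19 (median -0.02). The creatine transporter Slc6a8 rose by 0.63 (SE 0.0496, adjusted p = 2.9e-09) and the glycine transporter Slc6a9 fell by 0.50 (SE 0.0697, adjusted p = 1.68e-05). Among chaperones and sensors of the endoplasmic reticulum 8 of 27 rose and 14 fell, with a median log2 fold change of -0.09. Xbp1, a transcription factor of the unfolded protein response, was at 37.7, 37.5 and 30.8 CPM in the lean libraries and 61.9, 64.3 and 69.7 CPM in the obese libraries and fell by 0.89 (SE 0.0735, adjusted p = 7.9e-09), the chaperone Hspa5 fell by 0.15 (SE 0.0398, adjusted p = 0.00267), and Dnajb9 did not pass (0.09, SE 0.106, adjusted p = 0.516).

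In the heat shock list 17 of 22 genes rose and 0 fell (median 0.32). Hsp90aa1, the inducible HSP90, was at 2724, 2546 and 2713 CPM in the lean libraries and 1587, 1389 and 1456 CPM in the obese libraries, a rise of 0.85 (SE 0.0412, adjusted p = 4.63e-13). Hsph1, a nucleotide exchange factor of HSP70, was at 750.5, 751 and 986 CPM in the lean libraries and 467, 423 and 419.6 CPM in the obese libraries, a rise of 0.93 (SE 0.116, adjusted p = 0.000487). The small heat shock protein Cryab rose by 0.80 (SE 0.176, adjusted p = 0.00519). The lean libraries of all 3 genes lay above the obese libraries, and lean replicate 3 was the highest for Hsph1 and Cryab. Hspa1b, an inducible HSP70, was at 18.3, 17.1 and 35.4 CPM in the lean libraries and 12.7, 9.99 and 10.2 CPM in the obese libraries, a rise of 1.12 (SE 0.330, adjusted p = 0.0284) that was lost when obese replicate 1, 2 or 3 was left out (adjusted p = 0.0544, 0.0901 and 0.0881), in the 6 libraries alone (0.0688), with no filter (0.0566) or with the replicate number as a block (0.0543). Its near-identical copy Hspa1a rose by 1.99 (adjusted p = 0.00637) and passed in all 14 alternatives in which it was tested. The copies can share reads, so the 2 cannot be told apart. The heat shock element core GAANNTTC, which reads the same on both strands, stood in 6 of 17 genes of the list. It stood in 5.95% of all genes tested, 6.61% of those called higher and 5.59% of those called lower. Of all single windows, an unlike measure, it stood in 6.70%. The stretches of Hspa1a and Hspa1b (RefSeq, GRCm38.p6, element in capitals) are shown because the copies carry the element in the same stretch.
Hspa1a (chr17:34972213-34972300, minus strand): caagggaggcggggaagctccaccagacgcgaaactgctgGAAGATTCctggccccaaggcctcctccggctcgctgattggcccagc
Hspa1b (chr17:34959295-34959382, minus strand): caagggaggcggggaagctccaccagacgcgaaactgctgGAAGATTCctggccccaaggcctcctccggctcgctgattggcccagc
Of 38 proteasome subunits 31 rose and 3 fell (median 0.27). Psmd12, of the regulatory lid, was at 257, 244 and 248 CPM in the lean libraries and 172, 171 and 179 CPM in the obese libraries and rose by 0.52 (SE 0.0409, adjusted p = 2.05e-10), and the activator Psme4 rose by 0.52 (SE 0.0389, adjusted p = 8.89e-11). Psme1, a subunit of the interferon-linked activator, went the other way, at -0.53 (adjusted p = 1.83e-08).

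Of 35 genes of ribosome biogenesis and the MYC network 26 rose and 5 fell (median 0.27). Rrp9, an rRNA processing factor, was at 133, 135 and 145 CPM in the lean libraries and 91.5, 80.1 and 85.4 CPM in the obese libraries, a rise of 0.68 (SE 0.0508, adjusted p = 9.13e-11), and nucleolin (Ncl) rose by 0.39 (SE 0.0349, adjusted p = 1.63e-09) and Myc by 0.24 (SE 0.0419, adjusted p = 2.66e-05). Mxd4, a MYC antagonist, was at 12, 12.7 and 12.01 CPM in the lean libraries and 31.5, 34.9 and 34.3 CPM in the obese libraries and fell by 1.46 (SE 0.0706, adjusted p = 1.49e-13). By contrast 79 of 80 cytosolic ribosomal protein genes fell and 0 rose, with a median of -0.27 and a narrow range from -0.61 to -0.03. Rps20 was at 271, 278 and 260.4 CPM in the lean libraries and 402, 413 and 418 CPM in the obese libraries and fell by 0.61 (SE 0.0393, adjusted p = 1.13e-11), and Rplp0 was at 2179.6, 2240.5 and 2216 CPM in the lean libraries and 2542, 2627 and 2612 CPM in the obese libraries and fell by 0.23 (SE 0.0359, adjusted p = 7.74e-06). Ribosomal protein genes have many processed pseudogenes, with which they can share reads. Nuclear genes of the respiratory chain also fell more often than they rose: 52 of 69 fell and 2 rose (median -0.20), with the complex I genes Ndufv1 (-0.55, adjusted p = 2.19e-09), Ndufa6 (-0.53, 1.15e-07) and Ndufs1 (-0.49, 4.47e-09) among the lowest. Of the 13 mRNAs encoded in the mitochondrion 1 passed, mt-Co2 at 0.31 (0.0152), a call lost without obese replicate 1 (0.0536) or obese replicate 2 (0.130). Reads of these genes can also match nuclear copies.

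Both of these falling lists consist of short transcripts. The median length of the longest annotated transcript (GENCODE M21) was 1054 bases in the ribosomal protein list and 1141 bases in the respiratory list. Among the shortest 2710 tested genes, up to 1557 bases, the median log2 fold change was -0.05, and it was -0.03 without these 2 lists. Among the longest 2708 it was 0.02. By GC content the median went from 0.07 in the 2710 genes with the lowest to -0.08 in the 2710 with the highest. The part of length and GC content in the list results was not tested.

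Of 57 DNA replication and G1/S genes 27 rose and 12 fell (median 0.10), whereas of 52 genes of mitosis and G2/M 1 rose and 37 fell (median -0.29). Pcna, the clamp of DNA polymerase, was at 261, 263 and 269.8 CPM in the lean libraries and 199, 199 and 195 CPM in the obese libraries and rose by 0.42 (SE 0.0370, adjusted p = 1.36e-09). The primase Prim1 rose by 0.57 (SE 0.0475, adjusted p = 5.53e-10) and cyclin E1 (Ccne1) by 0.41 (SE 0.0458, adjusted p = 7.23e-08), while Mcm2 did not pass (0.06, SE 0.0361, adjusted p = 0.178) and thymidine kinase Tk1 fell by 0.58 (SE 0.0475, adjusted p = 5.9e-10). Cyclin B2 (Ccnb2) was at 62.3, 62.2 and 48.2 CPM in the lean libraries and 116, 131 and 131 CPM in the obese libraries, a fall of 1.14 (SE 0.104, adjusted p = 1.81e-05). Lean replicate 3 was the lowest lean library for Ccnb2, and it was the most extreme lean library in 38 of the 38 called mitosis genes, compared with 57.7% of all called genes. Without it, 36 mitosis genes fell and 4 rose. Securin (Pttg1) fell by 0.80 (SE 0.0580, adjusted p = 1.09e-10) and Mki67 by 0.39 (SE 0.0669, adjusted p = 0.000297), and the mitotic kinase Cdk1 did not pass (0.05, SE 0.0397, adjusted p = 0.344). The riser was Mybl2, a transcription factor of the S and G2 phases, at 227, 235 and 237 CPM in the lean libraries and 129, 115 and 120.1 CPM in the obese libraries, up by 0.94 (SE 0.0431, adjusted p = 8.36e-14). In bulk RNA, fewer cells in a phase and less RNA per cell in that phase cannot be told apart.

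Among p53 targets 15 of 28 rose and 7 fell, with a median log2 fold change of 0.21. Cdkn1a, which encodes the cell cycle inhibitor p21, was at 67.6, 65.8 and 73.2 CPM in the lean libraries and 38.5, 31.2 and 31.9 CPM in the obese libraries, a rise of 1.03 (SE 0.0670, adjusted p = 2.17e-11), and every lean library lay above every other library. The death receptor Tnfrsf10b rose by 0.80 (SE 0.0607, adjusted p = 1.4e-10), Mdm2, the ligase of p53, by 0.36 (SE 0.0472, adjusted p = 6.13e-07) and Trp53 itself by 0.17 (SE 0.0379, adjusted p = 0.000464). Of 17 genes of the BCL2 family 3 rose and 8 fell (median -0.06). Among the proapoptotic members Pmaip1 rose by 0.89 (SE 0.176, adjusted p = 0.000143), while Bmf, at 10.8, 11.6 and 10.9 CPM in the lean libraries and 22.99, 23.4 and 23.5 CPM in the obese libraries, fell by 1.07 (SE 0.0756, adjusted p = 4.19e-11) and Bbc3 by 0.59 (SE 0.0973, adjusted p = 1.69e-05). The antiapoptotic Bcl2l1 fell by 0.39 (SE 0.0472, adjusted p = 2.25e-07). Without lean replicate 1 the list had 5 members that fell.

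Lipid storage genes rose more often than they fell, and genes of cholesterol synthesis and uptake fell more often than they rose. PPAR receptors are activated by fatty acids and oxylipins, and of 16 tested sentinel targets 7 rose and 2 fell (median 0.37). Plin2, which coats lipid droplets, was at 157, 159 and 149 CPM in the lean libraries and 77.2, 70.1 and 82 CPM in the obese libraries, a rise of 1.02 (SE 0.0673, adjusted p = 2.36e-09). The acyl-CoA thioesterase Acot2 rose by 0.88 (SE 0.100, adjusted p = 8.25e-08) and the carnitine carrier Slc25a20 by 0.78 (SE 0.0852, adjusted p = 3.9e-08), but the oxidation enzymes Cpt1a (0.12, SE 0.0833, adjusted p = 0.251) and Acadvl (0.08, SE 0.0426, adjusted p = 0.128) did not pass. Pparg had 0 counts, as given above. In lipid droplet and triglyceride genes 11 of 21 rose and 6 fell, with a median log2 fold change of 0.12: the lipase Pnpla2 rose by 0.66 (SE 0.0532, adjusted p = 3.25e-10), and Lpin1, a phosphatidate phosphatase, fell by 1.18 (SE 0.0856, adjusted p = 6.86e-11). In fatty acid oxidation 5 of 32 rose and 17 fell, with a median log2 fold change of -0.18, with Hadha of the mitochondrial trifunctional protein at -0.32 (adjusted p = 7.4e-07). Without lean replicate 3 that list had 8 risers.

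Srebf1, the transcription factor of lipogenesis, was at 132, 131 and 129 CPM in the lean libraries and 268, 306 and 244 CPM in the obese libraries, a fall of 1.06 (SE 0.0599, adjusted p = 6.92e-10). In de novo lipogenesis 6 of 24 rose and 9 fell, with a median log2 fold change of -0.01. Over all tested genes 25.8% were called higher and 26.9% lower. Scd1, which desaturates fatty acids, fell by 0.72 (SE 0.107, adjusted p = 0.000827) and Mid1ip1, a paralog of Thrsp, by 1.08 (SE 0.159, adjusted p = 3.55e-06), while Fasn did not pass (0.06, SE 0.0723, adjusted p = 0.488) and the carboxylase Acacb rose by 1.47 (SE 0.267, adjusted p = 5.91e-05). In cholesterol synthesis and uptake 7 of 27 rose and 14 fell, with a median log2 fold change of -0.21. The feedback regulator Insig1 fell by 0.74 (SE 0.167, adjusted p = 0.00627) and mevalonate kinase Mvk by 0.76 (SE 0.0663, adjusted p = 1.1e-09). Of 6 cholesterol efflux and LXR targets 1 rose and 5 fell: Abcg1, a sterol exporter, fell by 0.82 (SE 0.0470, adjusted p = 1.84e-12), the receptor Nr1h3 by 0.60 (SE 0.0568, adjusted p = 4.42e-09), and Apoe rose by 0.75 (SE 0.211, adjusted p = 0.0123). In polyunsaturated fatty acid activation and remodelling 10 of 20 rose and 7 fell, with a median log2 fold change of 0.09. Pla2g4a, the phospholipase that frees arachidonic acid, was at 21.7, 21.6 and 22.1 CPM in the lean libraries and 13.7, 10.9 and 10.7 CPM in the obese libraries and rose by 0.89 (SE 0.102, adjusted p = 1.7e-07). The synthetase Acsl1 rose by 0.76 (SE 0.0622, adjusted p = 4.79e-10), Acsl3 fell by 0.58 (SE 0.0582, adjusted p = 2.83e-08) and Acsl4 by 0.24 (SE 0.0724, adjusted p = 0.00718).

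**Figure D3:**
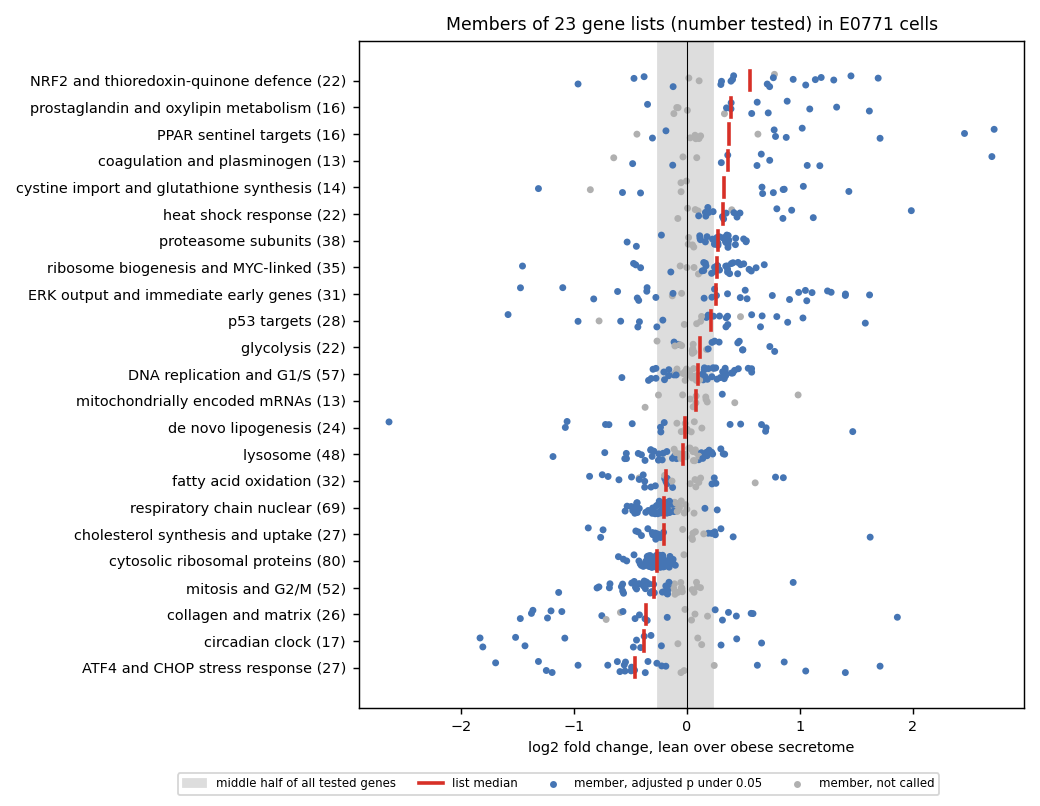
Log2 fold change of lean over obese secretome (horizontal axis) of each tested member of 23 gene lists, with the number tested in brackets; blue points are called, grey points are not, red bars are list medians and the grey band is the middle 50% of all tested genes. Medians run from 0.56 (NRF2 and thioredoxin-quinone defence) to -0.46 (ATF4 and CHOP stress response), and the ribosomal protein points stay together below 0.

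Prostaglandin and oxylipin genes, which act on the class of molecule named in the series title, rose more often than they fell: 10 of 16 rose and 1 fell, with a median log2 fold change of 0.39. The prostaglandin exporter Abcc4 was at 258, 251 and 265 CPM in the lean libraries and 144, 109.9 and 111 CPM in the obese libraries, a rise of 1.09 (SE 0.0925, adjusted p = 1.06e-05). Ptges, a prostaglandin E synthase, rose by 0.57 (SE 0.0634, adjusted p = 5.23e-08), the epoxygenase Cyp2j6 by 0.72 (SE 0.115, adjusted p = 1.05e-05) and the prostaglandin importer Slco2a1 by 0.62 (SE 0.190, adjusted p = 0.00788), which was lost without lean replicate 2 (0.0639). The cyclooxygenases were near the limit of counting. Ptgs2 was at 0.572, 0.652 and 0.607 CPM in the lean libraries and 0.197, 0.354 and 0.177 CPM in the obese libraries, a rise of 1.32 (SE 0.431, adjusted p = 0.012) that was lost without obese replicate 1 (adjusted p = 0.0520) or obese replicate 3 (0.0692) and in the fit of 18 mouse libraries (0.0630), and Ptgs1 did not pass (0.33, SE 0.391, adjusted p = 0.501).

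In the list of ERK output and immediate early genes 19 of 31 rose and 10 fell, with a median log2 fold change of 0.26. Ier3 was at 207, 209 and 285 CPM in the lean libraries and 106, 90.1 and 93.7 CPM in the obese libraries, a rise of 1.28 (SE 0.154, adjusted p = 0.000452). Of the ligands of the EGF receptor family, amphiregulin (Areg) was at 5.14, 5.36 and 3.86 CPM in the lean libraries and 1.42, 1.65 and 1.59 CPM in the obese libraries, a rise of 1.62 (SE 0.185, adjusted p = 8.96e-08), and betacellulin (Btc) was at 4.97, 3.77 and 3.54 CPM in the lean libraries and 1.38, 1.06 and 1.24 CPM in the obese libraries, a rise of 1.73 (SE 0.232, adjusted p = 8.86e-07). The lean libraries of the ligands lay well above both other groups. Hbegf rose by 1.11 (SE 0.106, adjusted p = 5.46e-09) and epiregulin (Ereg) by 1.05 (SE 0.101, adjusted p = 3.53e-08). Of the receptors, Egfr (0.17, SE 0.157, adjusted p = 0.37) and Erbb3 (-0.09, SE 0.119, adjusted p = 0.556) did not pass, and Erbb2 fell by 0.38 (SE 0.0523, adjusted p = 1.48e-06). Dusp6, a phosphatase of ERK, was at 10.8, 11.4 and 12.6 CPM in the lean libraries and 23.8, 25.9 and 24.8 CPM in the obese libraries and fell by 1.10 (SE 0.0872, adjusted p = 2.54e-10), and the early gene Egr3 fell by 1.47 (SE 0.183, adjusted p = 3.1e-07). Over all receptors and ligands of the family 5 of 11 rose and 2 fell, with a median log2 fold change of 0.17.

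In the NF-kB and chemokine list 10 of 24 rose and 7 fell, with a median log2 fold change of 0.18. The chemokine Ccl2, which draws monocytes, was at 20.6, 20.3 and 29.5 CPM in the lean libraries and 10.4, 9.92 and 9.49 CPM in the obese libraries, a rise of 1.25 (SE 0.125, adjusted p = 3.94e-07), and Ccl7 rose by 1.35 (SE 0.315, adjusted p = 0.00658). The cytokine Lif rose by 1.56 (SE 0.239, adjusted p = 6.28e-06) and Traf1 by 1.58 (SE 0.226, adjusted p = 2.21e-06), whereas the feedback genes Nfkbia (0.03, SE 0.0672, adjusted p = 0.779) and Tnfaip3 (0.18, SE 0.203, adjusted p = 0.48) did not pass. Among interferon-stimulated genes 5 of 29 rose and 9 fell, with a median log2 fold change of -0.25. The RNA sensor Ddx58 fell by 0.96 (SE 0.113, adjusted p = 2.47e-07), while Oasl1 rose by 1.04 (SE 0.195, adjusted p = 7.8e-05). In antigen presentation 2 of 13 rose and 6 fell, with a median log2 fold change of -0.20. The checkpoint ligand Cd274 was at 1.86, 2.43 and 2.68 CPM in the lean libraries and 1.14, 0.669 and 0.602 CPM in the obese libraries and rose by 1.54 (SE 0.261, adjusted p = 2.33e-05), and the class I genes H2-K1 and Tap1 fell by 0.50 (SE 0.0910, adjusted p = 5.01e-05) and 0.44 (SE 0.0764, adjusted p = 3.03e-05). Among receptors of adipokines and cytokines 1 of 18 rose and 6 fell, with a median log2 fold change of -0.03: the adiponectin receptor Adipor1 did not pass (0.00, SE 0.0456, adjusted p = 0.953), Adipor2 fell by 0.19 (SE 0.0403, adjusted p = 0.000399) and Il6ra by 0.66 (SE 0.0475, adjusted p = 5.52e-11).

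Coagulation genes and genes of glucose use rose more often than they fell. Of 13 coagulation and plasminogen genes 8 rose and 2 fell (median 0.36). The urokinase receptor Plaur rose by 1.06 (SE 0.0855, adjusted p = 1.53e-07) and tissue factor (F3) by 0.62 (SE 0.0670, adjusted p = 3.54e-08). In glycolysis 10 of 22 rose and 2 fell, with a median log2 fold change of 0.12. The glucose transporter Slc2a1 was at 262, 275 and 281 CPM in the lean libraries and 182, 148 and 147 CPM in the obese libraries, a rise of 0.78 (SE 0.0726, adjusted p = 2.76e-06), and the lactate exporter Slc16a3 rose by 0.73 (SE 0.0761, adjusted p = 1.87e-05) and hexokinase 2 (Hk2) by 0.49 (SE 0.0483, adjusted p = 7.13e-09), but Ldha did not pass (0.06, SE 0.0354, adjusted p = 0.144). Among HIF1 targets 12 of 21 rose and 4 fell, with a median log2 fold change of 0.30, with Vegfa at -0.26 (adjusted p = 6.5e-05) against the direction of Adm and Slc2a1.

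Matrix genes, which also serve as stromal markers, fell more often than they rose. In the collagen and matrix list 7 of 26 rose and 13 fell, with a median log2 fold change of -0.36. Col1a1 was at 202, 219 and 189.5 CPM in the lean libraries and 418, 608 and 545 CPM in the obese libraries and at 687 ± 43.9 CPM (mean ± SD, n = 3) in control medium, a fall of 1.36 (SE 0.147, adjusted p = 0.000257). Col3a1 was at 48.1, 49.5 and 37.6 CPM in the lean libraries and 112, 139 and 124 CPM in the obese libraries, a fall of 1.47 (SE 0.140, adjusted p = 9.16e-05). The obese libraries lay between the lean and the control libraries for Col1a1, without overlap with the lean group. These 2 collagens make up much of the stromal marker sum given above. The other 8 stromal markers summed to between 198 and 228 CPM in the lean and 240.5 to 264 CPM in the obese libraries, and 3 of the 5 tested fell. Their part in these results was not tested. Biglycan (Bgn) fell by 1.38 (SE 0.139, adjusted p = 1.22e-08). In the epithelial-mesenchymal list 6 of 15 rose and 6 fell, with a median log2 fold change of 0.15. Vimentin (Vim) was at 2062, 2112 and 1878 CPM in the lean libraries and 2808, 2904 and 2921 CPM in the obese libraries, a fall of 0.51 (SE 0.0378, adjusted p = 8.43e-11), S100a4 fell by 0.62 (SE 0.0412, adjusted p = 1.75e-11), and the integrin Itgav rose by 0.59 (SE 0.0568, adjusted p = 1.01e-08). Of 10 tested keratin and junction genes 5 rose and 2 fell (median 0.23): Pkp2, a desmosome protein, rose by 1.17 (SE 0.103, adjusted p = 1.4e-09), Jup fell by 0.64 (SE 0.0455, adjusted p = 4.31e-11) and Krt8 did not pass (0.05, SE 0.0366, adjusted p = 0.241). The basal marker Krt14, of the same list, rose by 2.46 (SE 0.433, adjusted p = 3.7e-05) at 18, 41 and 52 counts in the lean and 8, 2 and 8 in the obese libraries, and was chosen here after its values were seen. In the TGF-beta readout 4 of 14 rose and 8 fell, with a median log2 fold change of -0.27, with Tgfbi at -1.27 (adjusted p = 5.21e-05). Without lean replicate 3 that list had 2 risers. Of SRF and YAP targets 11 of 26 rose and 4 fell, with a median log2 fold change of 0.12: Acta2 rose by 0.76 (SE 0.0785, adjusted p = 1.83e-08), while Ccn2, the relative of Ccn1, fell by 0.48 (SE 0.148, adjusted p = 0.00849). Among matrix proteases and inhibitors 4 of 15 rose and 6 fell, with a median log2 fold change of -0.03, with Adamts1 up by 0.95 (SE 0.0825, adjusted p = 1.05e-09) and Mmp11 down by 0.76 (SE 0.0750, adjusted p = 9.1e-09).

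Of 17 tested genes of the circadian clock 3 rose and 11 fell (median -0.38). Dbp was at 22.1, 22.4 and 17.3 CPM in the lean libraries and 67.3, 77.2 and 71.4 CPM in the obese libraries, and Per3 at 9.97, 11.96 and 9.96 CPM in the lean libraries and 31.1, 31.6 and 28.5 CPM in the obese libraries, a fall of 1.52 (SE 0.0827, adjusted p = 8.23e-13). Every lean library of both genes lay below every obese library, which the choice of Dbp required. Per2 fell by 1.08 (SE 0.0902, adjusted p = 5.83e-10), whereas Per1 rose by 0.66 (SE 0.0681, adjusted p = 1.69e-08) and Arntl, a core activator of the clock, did not pass (0.10, SE 0.0580, adjusted p = 0.173). In the Wnt readout 6 of 11 rose and 3 fell, with a median log2 fold change of 0.27: Axin2, a direct target, fell by 0.67 (SE 0.0954, adjusted p = 2.12e-06), Tcf7 rose by 0.86 (SE 0.0982, adjusted p = 8.62e-08) and the corepressors Tle4 and Tle2 went apart, at 0.68 and -1.70. In Notch 3 of 10 rose and 5 fell, with a median log2 fold change of -0.03, with the ligand Jag1 up by 0.69 (SE 0.0835, adjusted p = 6.51e-07) and the target Nrarp down by 1.21 (SE 0.142, adjusted p = 4.36e-07). In 9 of 16 alternatives, DESeq2 among them, 3 members of the Notch list fell. In insulin and IGF signalling 2 of 15 rose and 7 fell, with a median log2 fold change of -0.11: Igf2r fell by 0.81 (SE 0.0627, adjusted p = 1.58e-10) and the IGF-binding protein Igfbp4 by 0.73 (SE 0.0411, adjusted p = 1.75e-12).

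The remaining lists were mixed. Of lysosomal genes 13 of 48 rose and 20 fell, with a median log2 fold change of -0.03. Naglu, an enzyme of heparan sulfate breakdown, was at 14.6, 13.2 and 13.6 CPM in the lean libraries and 26.6, 36.6 and 30.8 CPM in the obese libraries and fell by 1.19 (SE 0.0952, adjusted p = 4.05e-09), and Ctsd did not pass (-0.01, SE 0.0394, adjusted p = 0.858). Of autophagy genes 8 of 39 rose and 12 fell, with a median log2 fold change of -0.02; the kinase Ulk2 fell by 1.05 (SE 0.0785, adjusted p = 1.59e-10) and the factor Tfeb by 0.55 (SE 0.0818, adjusted p = 3.59e-06). The risers of that list numbered 5 when lean replicate 3 or obese replicate 3 was left out and 4 when obese replicate 2 was. Of metallothionein and zinc genes 8 of 14 rose and 1 fell, with a median log2 fold change of 0.20, with the zinc importer Slc39a6 up by 0.79 (SE 0.0533, adjusted p = 4.87e-11) and the metallothioneins Mt1 (0.02, SE 0.0489, adjusted p = 0.816) and Mt2 (-0.04, SE 0.0786, adjusted p = 0.726) not passing. Of tubulins 6 of 14 rose and 5 fell, with a median log2 fold change of 0.03, with Tuba4a up by 0.91 (SE 0.0614, adjusted p = 3.93e-09). Of 9 multidrug resistance transporters 3 rose and 4 fell (median 0.03), with Abcb1b up by 0.44 (SE 0.0517, adjusted p = 1.22e-07). Of 9 histone genes 2 rose and 4 fell. Replication-dependent histone mRNAs mostly lack a poly(A) tail, so poly(A) selection limits what this list shows. Of 4 aryl hydrocarbon receptor genes 3 rose, with Tiparp up by 0.40 (SE 0.0655, adjusted p = 1.74e-05), and Arnt, at -0.10, passed in 9 of 16 alternatives.

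**Figure D4:**
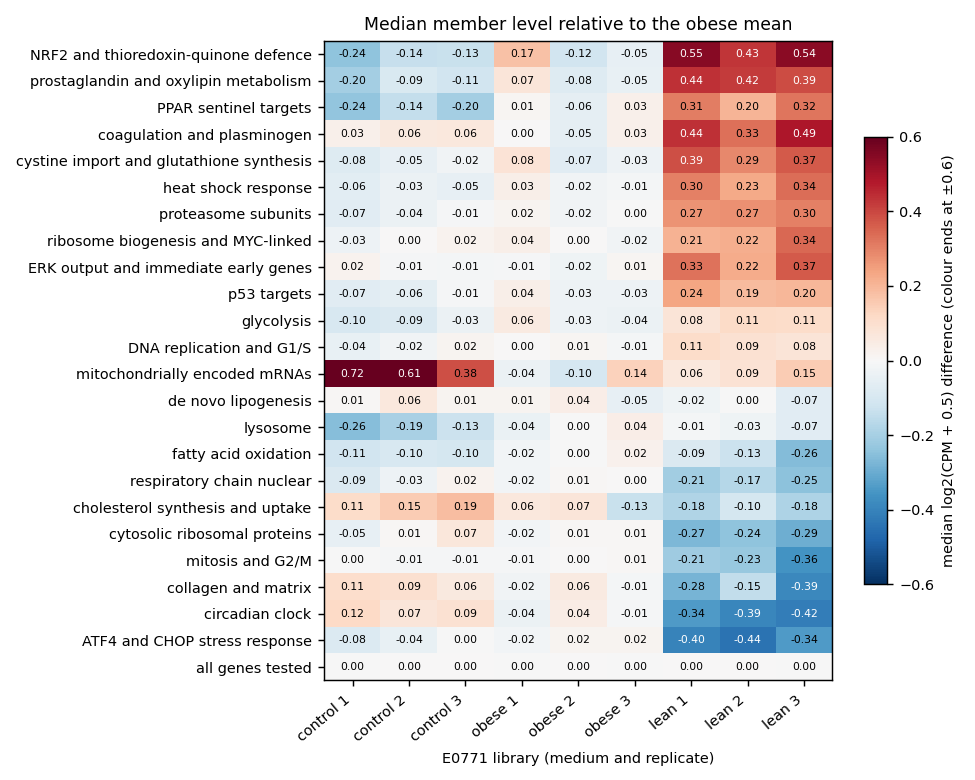
Median over the members of each of 23 lists, and over all tested genes, of log2(CPM + 0.5) minus the gene's mean in the 3 obese libraries, for each of 9 E0771 libraries (columns); red is higher, blue lower. The lean columns are close in some rows, for example -0.27, -0.24 and -0.29 for ribosomal proteins. They differ more in others, at -0.21, -0.23 and -0.36 for mitosis and -0.28, -0.15 and -0.39 for collagen and matrix. Obese replicate 1 reaches 0.17 in the NRF2 row.

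The responses of the 2 mouse lines to the same secretomes were then compared by a test of the difference, an interaction term in 1 edgeR fit of all 18 mouse libraries. The lines were grown in different media, so the line and its medium cannot be told apart. Medians given for both lines are over the genes tested in each line alone. Over all genes of that fit 34.2% were called different, and over those also tested in E0771 alone the share was 40.1%. Heat shock genes differed most often among lists of at least 10 genes: 20 of 22 were called, all of them higher in E0771, with medians of 0.32 in E0771 and -0.07 in NMuMG. Ribosome biogenesis followed, with 29 of 35 called and medians of 0.27 and -0.08. Mitosis genes fell in both lines and less in E0771, where 40 of 52 were called higher relative to NMuMG and the medians were -0.29 and -0.64. ATF4 and CHOP genes were called in 20 of 27, 17 of them lower in E0771 (medians -0.48 and 0.03). Fatty acid oxidation was called in 24 of 32, 21 of them lower in E0771 (medians -0.19 and 0.19), and glutathione transferases in 10 of 16, all lower in E0771 (over the 13 tested in each line alone, medians 0.28 and 0.96). Ribosomal proteins differed in 17 of 80, and their medians were -0.27 and -0.19.

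Of the 24 genes with the largest changes in E0771, 16 were called different from NMuMG. Selenbp1 had opposite signs, -1.97 in E0771 and 0.79 in NMuMG, a difference of -2.75 (SE 0.206, adjusted p = 1.81e-08). Aif1l rose in E0771 (1.82) and not in NMuMG (-0.09, adjusted p = 0.246), a difference of 1.92 (SE 0.137, adjusted p = 1.75e-12). Dbp fell by 1.81 in E0771 and was at -0.10 in NMuMG (adjusted p = 0.482), a difference of -1.69 (SE 0.127, adjusted p = 4.22e-13). Hmox1, Procr and Angptl4 rose in both lines and more in E0771. Nqo1 rose by 1.45 in E0771 and 1.87 in NMuMG, a difference that did not pass, at -0.41 (SE 0.768, adjusted p = 0.779). Sept4 fell in both lines, -1.84 and -1.35, and the difference did not pass either, at -0.47 (SE 0.267, adjusted p = 0.192). Adm, Thrsp, Epha8 and Kif26a had too few NMuMG counts to be tested in that line alone.

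**Figure D5:**
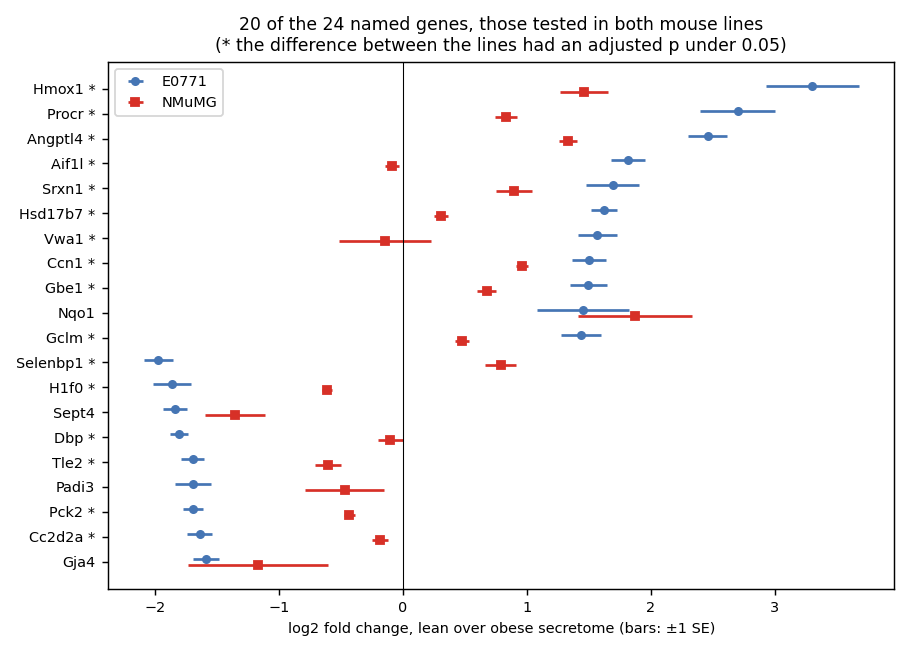
Log2 fold change of lean over obese secretome with bars of 1 SE (horizontal axis) in E0771 (blue circles) and NMuMG (red squares), for the 20 of the 24 genes that were tested in both lines. An asterisk marks the 16 genes whose difference between lines had an adjusted p under 0.05; Selenbp1 lies on opposite sides of 0, and the bars of Nqo1 overlap.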

How the data were processed

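The authors deposited raw counts per Ensembl gene ID, with no normalization. The submitters' processing notes name cutadapt 1.16, STAR 2.7.9a, featureCounts 1.6.3 and GRCm39; the strand setting and annotation release are not given in the sources used here. Symbols came from GENCODE M21 (GRCm38) and matched 52073 of 56980 IDs. The 9 E0771 libraries were fitted by medium in edgeR 4.0.16 (R 4.3.3) with filterByExpr, TMM factors and a robust quasi-likelihood fit; adjusted p-values are Benjamini-Hochberg over all tested genes. SE is the absolute log2 fold change divided by the square root of F. Log2 CPM used a prior count of 2. Intervals of count ratios are exact binomial on counts summed over libraries, so they cover counting error only and not the spread between libraries. The labels mention no molecular identifiers, so repeated reads of 1 molecule are not accounted for. Genes were named by rule: among called genes without overlap and with a full symbol, the 12 largest changes each way where mean log2 CPM reached 2 and 3 each way under it; in each of 58 lists the first 3 members and up to 4 called members with the largest change; and all ferroptosis core genes. The text gives a selection of these, and some are not reported here. Lists overlap. The members and lists were chosen with earlier results of these data known. Same-numbered lean and obese libraries had residual correlations of 0.0051, 0.0065 and -0.033. The fits were tested on simulated data.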

Additional observations from a re-analysis of the deposited data

Results flagged for a closer look

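For 16 of the 24 genes with the largest changes, the effect of lean over obese secretome differed between E0771 and NMuMG. The test was the interaction test in edgeR (adjusted p under 0.05). Of all genes of that fit 34.2% passed, and of those also tested in E0771 alone 40.1%. As the E0771 effect minus the NMuMG effect on the log2 scale, the differences above 0 were 1.86 for Hmox1, 1.88 for Procr, 1.14 for Angptl4, 1.92 for Aif1l, 0.81 for Srxn1, 1.33 for Hsd17b7, 1.73 for Vwa1, 0.56 for Ccn1, 0.84 for Gbe1 and 0.97 for Gclm. The differences below 0 were -2.75 for Selenbp1, -1.23 for H1f0, -1.69 for Dbp, -1.07 for Tle2, -1.24 for Pck2 and -1.44 for Cc2d2a. Since these genes were chosen for their size in E0771, a larger effect there is favoured by the choice. The difference for Srxn1 missed the threshold under 8 of the alternatives, with adjusted p between 0.0579 and 0.0911, and that for Ccn1 under 2, at 0.0644 and 0.0800. In the other direction, the difference for Padi3 passed under 3 alternatives (adjusted p between 0.000976 and 0.0376), that for Thrsp under 3 (0.0173 to 0.0478) and that for Kif26a under 1 (0.0443). Groups of 3 libraries are too small for a test of single outlying samples.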

How the results depend on the processing

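The count of 7275 called genes lay between 6435 and 7540 under DESeq2, its size factors, other filters, other sets of libraries and the replicate block, and counting only changes of at least 1 on the log2 scale gave 678. Leaving out 1 library at a time gave between 6435 and 7349 genes, from 3117 to 3597 higher and from 3318 to 3760 lower. DESeq2 called 6844 genes, of which 6820 were shared and had the same direction. With 18 mouse libraries in 1 fit the calls were 3937 higher and 3603 lower. The replicate block gave 7150 genes, and 2 named genes lost their call under it (Hspa1b and Lpcat3). The count of genes that differed between the lines, 5656, lay between 5142 and 5521 without 1 library. Of 324 named genes 281 were called, 257 of them in every one of the 16 alternatives in which they were tested, and none reversed. Of 1856 list counts under the alternatives 1800 stayed within 1.5 times the main count. For a gene with the median SE of 0.072, differences well under that size were not detectable with these libraries. Larger differences could be missed too. Nfe2l2, at 0.11, did not pass in edgeR (adjusted p = 0.14).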
